A study of Homo sapiens with 6 samples.

Results

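A core of 2095 open regions was found in all 6 ATAC-seq libraries of the series. To define them, the overlapping peak intervals of the 6 deposited lists were merged on chromosomes 1 to 22, and a merged region was kept when each of the 6 lists held an interval in it. These 2095 regions were 12.4% of the 16888 merged regions. Of the other regions, 6410 were in 1 list only and 1706 were in exactly 5 lists. Membership was thus chosen from the same lists that give the widths, summits and fold values described here, and all of these values are a description.

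The libraries came from K562, an established human leukaemia line, in 3 modified forms with DMSO or with camptothecin (CPT) at 1000 nM for 4 h. The 6 groups, each of 1 library, were E669Q SLFN11 overexpression with CPT and with DMSO, wild-type SLFN11 overexpression with CPT and with DMSO, and the vector control with CPT and with DMSO. The labels do not state the promoter of the constructs or whether a line is 1 clone. No group has a replicate, and no difference was tested. All intervals given with values cover counting error only. The labelled cell type was not checked against marker genes, and regions carry no gene names, because no annotation of the build of the lists (hg19) was used here.

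ATAC-seq finds DNA that a transposase can reach. Such open regions are mostly promoters, enhancers and sites bound by insulator proteins, where regulatory proteins keep nucleosomes away. Regions open in every condition of a cell line are often promoters of widely used genes and insulator sites, whereas enhancers vary more between cell states. SLFN11 is a protein of the Schlafen family that acts at replication forks under stress, and the E669Q substitution lies in its ATPase domain. CPT traps topoisomerase I on DNA and so blocks forks. The comparison asked which part of the open chromatin was held throughout and how its strength was ordered in each condition.

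The core was a different share of each list, smaller in the longer lists since the core is the same 2095 regions in each. It made up 17.9% of the regions of E669Q with CPT (95% exact binomial interval 17.2 to 18.6) and 26.3% of those of E669Q with DMSO (25.4 to 27.3). The share was 39.3% in wild-type SLFN11 with CPT (38.0 to 40.6), against 18.9% in wild-type SLFN11 with DMSO (18.2 to 19.7). It was 37.7% in vector with CPT (36.4 to 39.0), against 41.6% in vector with DMSO (40.2 to 43.0). Sequencing depth, recovered from the deposited values relative to vector with DMSO, was 2.22 in E669Q with CPT, 1.33 in E669Q with DMSO, and 1.09 and 1.72 in wild-type SLFN11 with CPT and with DMSO. Vector with CPT had 1.09. The lists in which the core took a small share were those of the deepest libraries, and depth cannot be told apart from line and treatment with 1 library each.

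Regions in exactly 5 lists were most often missing from the list of a shallow library, and the part of depth in this was not tested. Among the 1706 regions in exactly 5 lists, the list without an interval was vector with DMSO for 611, wild-type SLFN11 with CPT for 516 and vector with CPT for 404. It was E669Q with DMSO for 144, wild-type SLFN11 with DMSO for 16 and E669Q with CPT for 15. The members nearest the authors' threshold had a lowest −log10 q-value of 2.00 in at least 1 list. An example is chr14:56686558-56687027, with 10 fragments at the summit in E669Q with CPT and 5 in E669Q with DMSO, 4 in wild-type SLFN11 with CPT and 7 with DMSO, and 5 in vector with CPT and 6 with DMSO. The regions just outside, in exactly 5 lists with the highest lowest −log10 q-value, included 1 on chr2:191402649-191402788. It was absent from the vector list with CPT, although its fold was 18.3 in vector with DMSO and between 22.8 and 29.3 in the 4 SLFN11-line lists. Such a strong region missing from 1 list was narrow, 140 bp.

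Members were wide. The merged regions had a median width of 633 bp, with quartiles at 514 and 775 bp and a range of 129 to 3138 bp. Regions in exactly 5 lists had a median of 533 bp and regions in 1 list a median of 173 bp. Merging adds width each time another list contributes an interval, so this order is partly built in. The stretch covered by all 6 lists was much shorter, with a median of 182 bp in the 1915 members that had one. The other 180 members (8.59%) had no base common to all 6 lists and were joined through overlapping neighbours.

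Within single lists, whose intervals are not lengthened by merging, member intervals were still wider than the rest. This order is also partly built in, since membership needs overlap with the other lists and a wide interval overlaps more easily. Where a region held several intervals of a list, as 243 members (11.6%) did in at least 1 list, the widest was taken. The median was 472 bp for members and 241 bp for other regions in E669Q with CPT, and 402 and 237 bp in E669Q with DMSO. It was 310 and 210 bp in wild-type SLFN11 with CPT, against 491 and 249 bp in wild-type SLFN11 with DMSO. It was 318 and 201 bp in vector with CPT, against 319 and 208 bp in vector with DMSO. The same 2095 places were thus listed widest in the deepest libraries. Within the wild-type SLFN11 line 283 members (13.5%) were wider with CPT than with DMSO. In the E669Q line 1400 (66.8%) were wider with CPT, and in the vector line 1048 were. The CPT over DMSO depth ratio was 0.634, 1.66 and 1.09 for wild-type SLFN11, E669Q and vector.

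**Figure D1:**
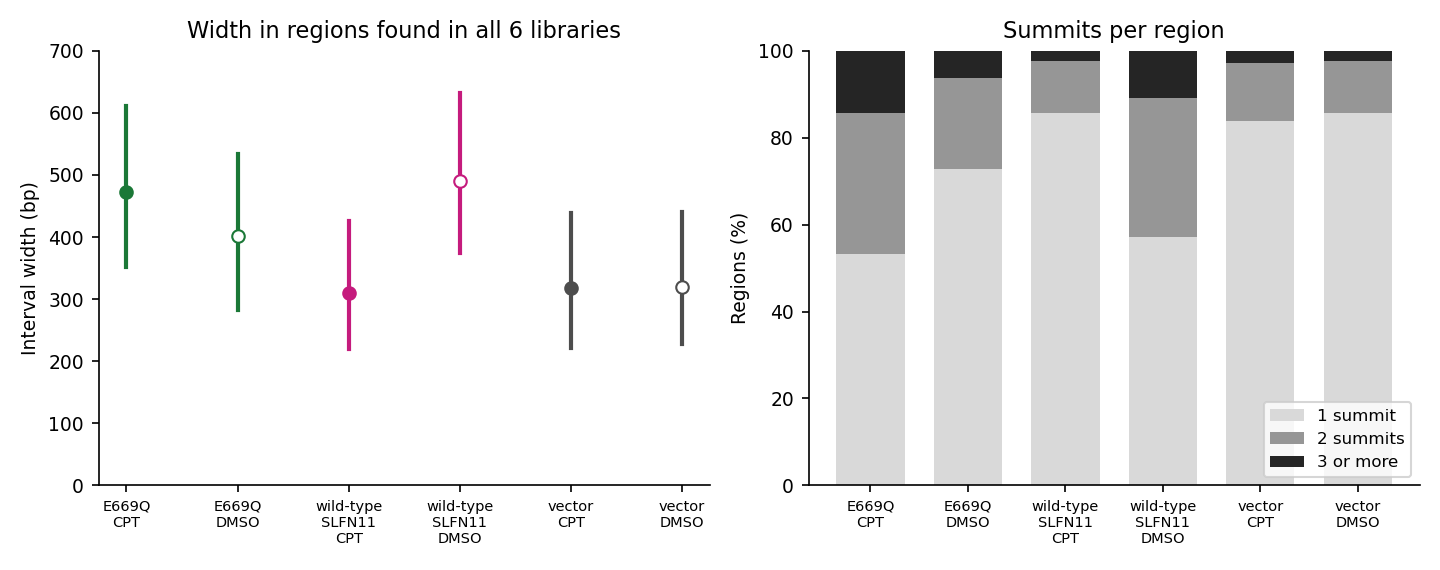
Left, width in bp of the widest interval in each of the 2095 regions per library, as the median (point) with quartiles (line); filled points are CPT and open points DMSO libraries. Right, the percentage of the 2095 regions with 1, 2, or 3 or more summits in each library. The 2 deepest libraries, E669Q with CPT and wild-type SLFN11 with DMSO, have the widest intervals and the most regions with several summits.

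Many members held more than 1 summit. Several summits in an interval mark separate maxima of fragment pileup. Summits were counted over the whole region, so several intervals of 1 list in a region also counted as several. At 243 members (11.6%) a list held more than 1 interval. Merging brings such intervals together, so the contrast with other regions is partly built in. In E669Q with CPT 46.7% of members had several, and in E669Q with DMSO 27.3%. In wild-type SLFN11 with CPT 14.3% had several, against 42.8% with DMSO. In vector with CPT 16.2% had several, against 14.3% with DMSO. The same shares among other regions of the 6 lists lay between 1.29% and 11.1%, below the members of the same list in each of the 6 lists. Over the 6 lists 1479 members (70.6%) had several summits in at least 1 list, and 60 (2.86%) in every list. The remaining 616 (29.4%) had a single summit in every list. Neighbouring summits of 1 interval were a median of 176 bp apart in members (quartiles 132 and 245 bp, 4200 pairs over the 6 lists) and 165 bp apart in other regions (126 and 227 bp, 2150 pairs).

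The strongest summit did not fall at 1 fixed base. The distance between the outermost of the 6 strongest summits of a member had a median of 177 bp, with quartiles at 115 and 275.5 bp. Members were split into 4 equal classes by their mean summit pileup scaled to depth. The median distance was 132 bp in the tallest class and 203 bp in the lowest. All 6 summits lay within 50 bp in 138 members (6.59%), which were 21.0% of the tallest class and 0.382% of the lowest. Between 2 libraries the median distance of the strongest summits was 54 to 67 bp over the 15 pairs. It averaged 61.3 bp over the 3 same-line pairs, 61.5 bp over the 6 same-treatment pairs and 60.8 bp over the 6 remaining pairs. The place of the summit was therefore no closer between libraries of 1 line or 1 treatment than between unrelated ones.

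The members crowded the top of each list by the authors' fold. Fold is the authors' ratio of fragments piled up at the summit over the local background, and the highest fold of a region was ranked among all regions of its list. The median member stood at percentile 80.8 in E669Q with CPT and 74.2 in E669Q with DMSO. It stood at 68.4 in wild-type SLFN11 with CPT, against 83.2 with DMSO, and at 69.4 in vector with CPT, against 67.9 with DMSO. Of the top 10% of each list, members made up 55.6% in E669Q with CPT and 64.2% with DMSO. They made up 77.2% in wild-type SLFN11 with CPT, against 62.9% with DMSO, and 78.4% in vector with CPT, against 82.6% with DMSO. In the weakest 10% the share was 2.35% to 17.6%. Still, only 94 members (4.49%) were in the top 10% of all 6 lists, 692 (33.0%) were above the middle of all 6, and 41 were below the middle of all 6.

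**Figure D2:**
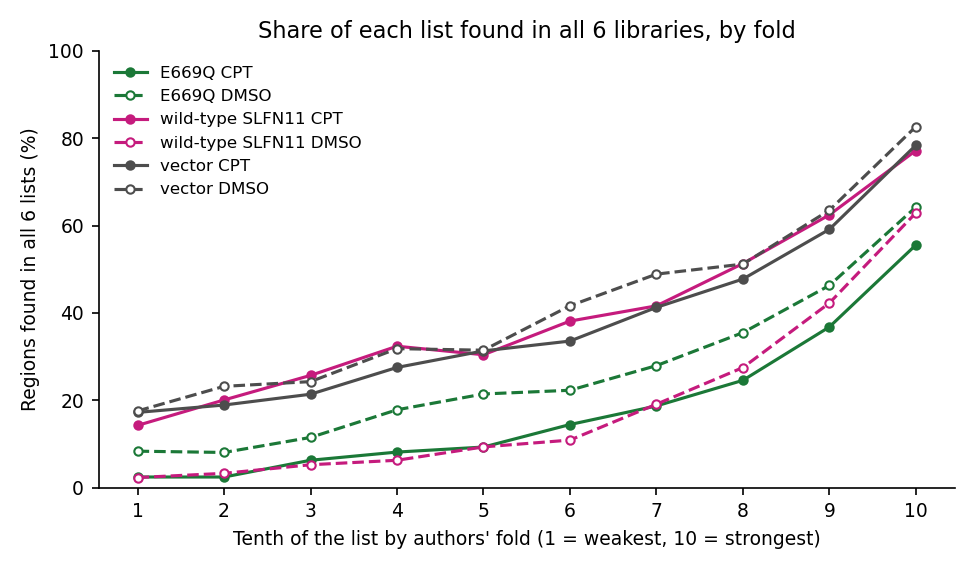
Percentage of regions found in all 6 libraries, over 10 equal steps of each list by authors' fold; step 10 holds the highest fold. Solid lines with filled points are CPT and dashed lines with open points DMSO libraries. In step 10, 55.6% to 82.6% of regions were members, and in step 1, 2.35% to 17.6%.

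That place at the top held for fold and pileup and not for the plain ratio. The deposited fold behaves as the pileup plus 1 over the background plus 1, which damps the ratio at low depth. Solving fold and −log10 p together gave a whole pileup and a background for 99.1% to 99.5% of entries. Members had a median of 20 fragments at the summit in E669Q with CPT (other regions of the list 11) and 14 in E669Q with DMSO (9). They had 11 in wild-type SLFN11 with CPT (8), against 20 with DMSO (10), and 11 in vector with CPT (8), against 11 with DMSO (7). The local background was also higher at members in each list, for example 1.63 against 0.920 fragments in E669Q with CPT and 0.721 against 0.407 in vector with DMSO. Pileup over background, with no pseudocount, was 11.9 at members and 11.5 at other regions in E669Q with CPT, and 13.5 and 14.2 in E669Q with DMSO. It was 14.4 and 15.1 in wild-type SLFN11 with CPT, against 12.9 and 12.5 with DMSO, and 15.1 and 16.5 in vector with CPT, against 15.2 and 17.7 with DMSO. Ranked by that ratio, the median member stood only at percentile 39.6 to 53.5 of its list, and members made up 19.4% to 34.6% of the top 10%.

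The direction of the CPT difference also depended on which ratio was read. Median fold of the members was 7.69 in E669Q with CPT and 7.11 with DMSO, 6.62 in wild-type SLFN11 with CPT and 8.11 with DMSO, and 6.92 in vector with CPT and 6.78 with DMSO. Fold was higher with CPT at 1312 members (62.6%) in the E669Q line, where it was at 58.6% of all regions held by both lists. It was higher at 520 (24.8%) with wild-type SLFN11, against 29.7% of all, and at 1118 (53.4%) with vector, against 53.0% of all. The median log2 ratio of CPT over DMSO fold was 0.10 for E669Q, −0.25 for wild-type SLFN11 and 0.02 for vector. Pileup over background went the other way in both SLFN11 lines. Its median log2 ratio of CPT over DMSO was −0.15 for E669Q, 0.15 for wild-type SLFN11 and −0.02 for vector. In each line the library with the higher fold was the deeper one, and the part of depth in the fold difference was not tested.

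Between lines, fold with CPT was higher in E669Q than in wild-type SLFN11 at 1468 members (70.1%; 67.2% of all regions held by both lists) and higher in E669Q than in vector at 1368 (65.3%; 63.6% of all). It was higher in wild-type SLFN11 than in vector at 914 (43.6%; 45.8% of all). With DMSO it was higher in E669Q than in wild-type SLFN11 at 694 members (33.1%; 38.7% of all), and higher in E669Q than in vector at 1196 (57.1%; 57.1% of all). It was higher in wild-type SLFN11 than in vector at 1518 (72.5%; 69.0% of all). The depth ratio of the first to the second library was 2.04 for E669Q over wild-type SLFN11, 2.04 for E669Q over vector and 1.00 for wild-type SLFN11 over vector with CPT. With DMSO it was 0.775, 1.33 and 1.72 for the same pairs. Fold was higher at most members in the deeper library of each pair that differed in depth.

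**Figure D3:**
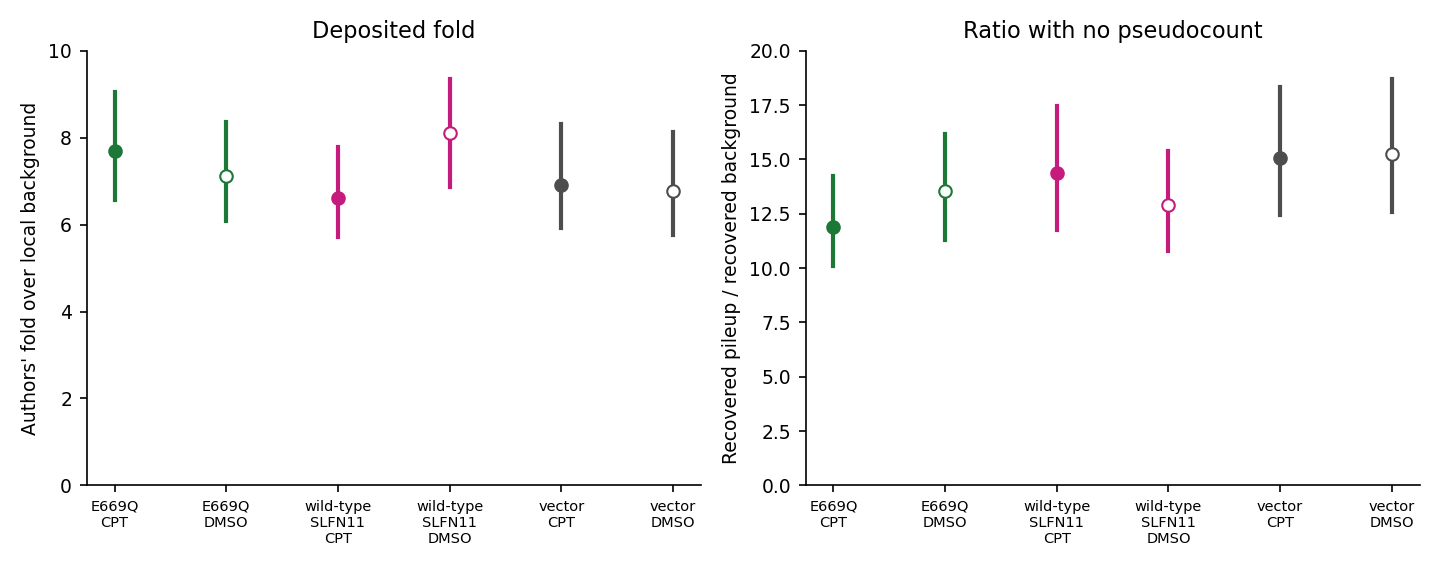
Strength of the 2095 regions in each library as the median (point) with quartiles (line); filled points are CPT and open points DMSO libraries. Left, the authors' fold; right, recovered pileup over recovered local background. In the wild-type SLFN11 line median fold was 6.62 with CPT and 8.11 with DMSO, while the plain ratio was 14.4 with CPT and 12.9 with DMSO.

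To follow each region between libraries, its fold was ranked among the 2095 members of each list, from 0 for the weakest to 100 for the strongest, so that lists of different length could be set side by side. The order of the members was loosely kept. Spearman's rho of fold over the 2095 members was 0.35 to 0.49 in the 15 pairs of libraries. The mean was 0.42 for same-line pairs, 0.41 for same-treatment pairs and 0.41 for the remaining pairs. Summit pileup was kept better, with rho of 0.52 to 0.73. Its mean was 0.67 for same-line pairs, 0.63 for same-treatment pairs and 0.62 for the remaining pairs. Local background was kept best, with rho of 0.73 to 0.91, and its means were 0.87, 0.82 and 0.80 for the same 3 kinds of pair. These values describe how the orders compare, since regions of 1 library share its depth and preparation. A member's 6 ranks spanned a median of 54.9 points. The span was at least 50 points in 1223 members (58.4%) and under 20 points in 145 (6.92%).

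A move of 20 points or more in rank between CPT and DMSO was found at 968 members (46.2%) in the E669Q line, where 49.9% of all 6542 regions held by both lists moved as far. It was found at 1101 members (52.6%) in the wild-type SLFN11 line, against 52.0% of all 4595, and at 1000 (47.7%) in the vector line, against 49.6% of all 3168. The members' shares were thus near the background. Between lines with CPT, the same size of move was found at 1093 members (52.2%) for E669Q against wild-type SLFN11 (51.2% of all), at 1013 (48.4%) for E669Q against vector (50.4%) and at 1076 (51.4%) for wild-type SLFN11 against vector (51.1%). With DMSO it was 963 (46.0%; 49.2% of all), 1054 (50.3%; 51.6%) and 1031 (49.2%; 49.1%) for the same 3 pairs of lines. The shares for treatment, 46.2% to 52.6%, and for line, 46.0% to 52.2%, covered nearly the same range.

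Counting error is wide at these pileups. A count of 11 fragments, the median in the 3 shallowest libraries, has an exact Poisson 95% interval of 5.49 to 19.7, and a count of 20 one of 12.2 to 30.9. The tallest members moved less often than the others. In the tallest class by scaled pileup 29.0% of members moved by 20 points or more with CPT in E669Q cells, 38.4% in wild-type SLFN11 cells and 32.4% in vector cells. In the class below it the shares were 49.9%, 56.8% and 53.0% in the same lines. They were 55.3%, 61.3% and 55.5% in the next class. In the lowest class 265, 282 and 262 of 524 members moved as far, so the share did not fall steadily with height. The classes also differed in median rank by fold. It was 73.0 in the tallest class, 55.4 in the class below it, 46.0 in the next and 32.0 in the lowest. The parts of counting error and of rank in these moves were not tested.

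**Figure D4:**
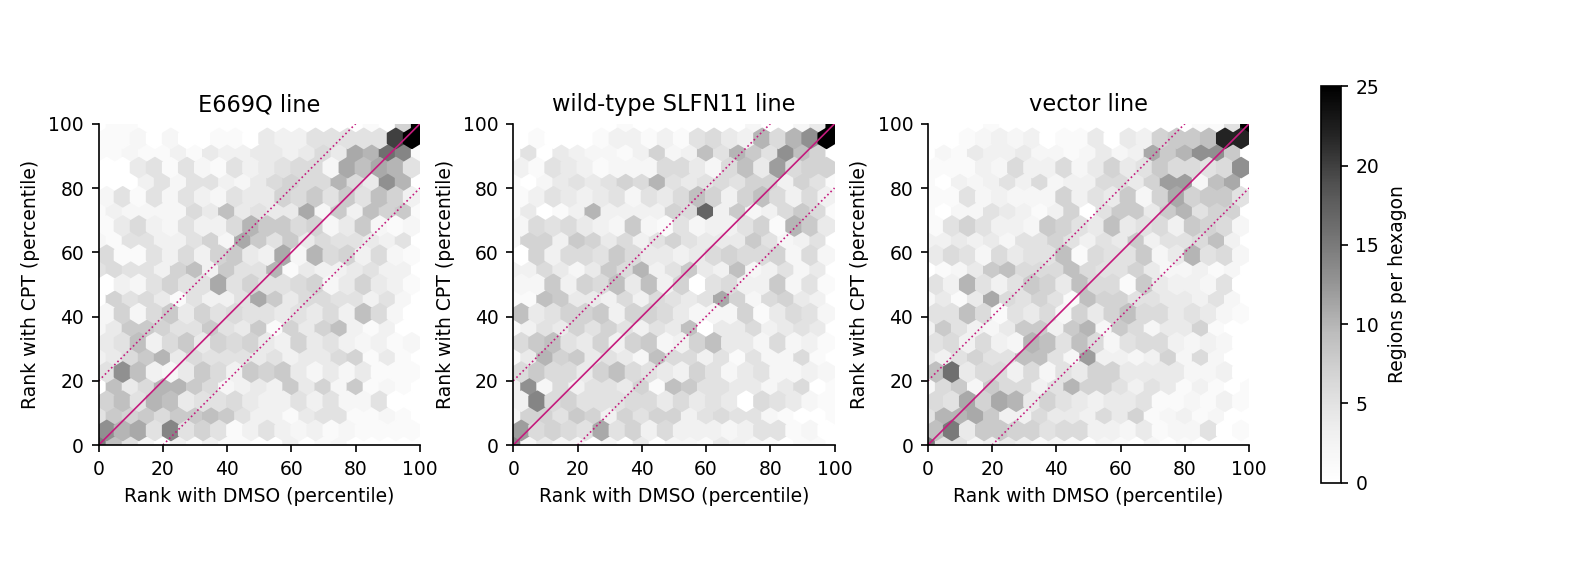
Rank by fold of the 2095 regions with CPT (vertical) and with DMSO (horizontal) in each line, as percentiles among the 2095; the shade gives the number of regions per hexagon, up to 25. The solid line marks equal ranks and the dotted lines a move of 20 points. Ranks agree most in the top corner, and 46.2%, 52.6% and 47.7% of regions lie on or beyond the dotted lines in the E669Q, wild-type SLFN11 and vector lines.

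The patterns of direction with CPT over the 3 lines held similar numbers of members. The rank was higher with CPT in all 3 lines at 258 members (12.3%) and lower in all 3 at 247 (11.8%), together 505 (24.1%). The other 6 patterns of direction held 248 to 273 members each, so no pattern stood out in number. All 3 CPT ranks lay above all 3 DMSO ranks at 101 members (4.82%) and below them at 92 (4.39%). A move of 20 points or more was seen in all 3 lines upward at 39 members (1.86%) and downward at 44 (2.10%).

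Among the 505 members whose rank moved the same way in all 3 lines, the largest mean move upward was on chr6:164006848-164007368. The fold of this region was 8.80 in E669Q with CPT and 4.20 with DMSO. It was 6.60 in wild-type SLFN11 with CPT and 6.17 with DMSO, and 8.76 in vector with CPT and 4.86 with DMSO. The CPT values lay above all DMSO values, and the pileups behind them were 15, 8 and 14 fragments with CPT and 5, 10 and 6 with DMSO in the E669Q, wild-type SLFN11 and vector lines. The next ones lay on chr7:107531455-107532026 and chr7:77165952-77166622, chr18:2302738-2303467 and chr6:119214809-119215876, with mean moves of 53.5 to 57.9 points. The largest mean move downward was −57.9 points, on chr5:70882729-70883282. There the fold was 4.69 in E669Q with CPT and 7.51 with DMSO, 4.32 in wild-type SLFN11 with CPT and 9.96 with DMSO, and 4.51 in vector with CPT and 6.40 with DMSO. It was followed by chr5:131826289-131826840 and chr5:110074296-110075148, chr4:146101515-146102125 and chr2:210866829-210867618. Of these 5 downward regions 3 lay on chromosome 5, which held 181 of the 2095 members (8.64%). A count among so few picked regions was not tested. The 10 regions were picked as the extremes of these 505 members, so their shared direction over the lines follows from the choice. They had 5 to 31 fragments at their summits.

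Ranks in both SLFN11 lines lay above both vector ranks, in all 4 libraries, at 158 members (7.54%), and below them at 136 (6.49%). These shares were not set against a random order of the 6 ranks. The highest mean difference, 62.7 points, was on chr9:108006615-108007144. Its fold was 8.95 in E669Q with CPT and 8.30 with DMSO, 11.3 in wild-type SLFN11 with CPT and 9.72 with DMSO, and 6.22 in vector with CPT and 4.42 with DMSO. The 4 SLFN11-line values did not overlap the vector values. The regions named here were picked as extremes of the 479 members with 1 sign in the 4 comparisons, so this separation follows largely from the choice. The pileup was 20 fragments in E669Q with CPT and 13 with DMSO, 17 in wild-type SLFN11 with CPT and 20 with DMSO, and 9 in vector with CPT and 5 with DMSO. The others at this end were on chr11:124823787-124824299, chr14:23755300-23755712, chr1:94374951-94375444 and chr5:179159457-179160198. The lowest, −64.3 points, was on chr1:201139742-201140239, with a fold of 6.64 in E669Q with CPT and 6.02 with DMSO, 5.79 in wild-type SLFN11 with CPT and 7.81 with DMSO, and 11.6 in vector with CPT and 10.1 with DMSO. Next to it in order were chr6:11938746-11939115, chr7:17979762-17980600, chr6:157935934-157936567 and chr8:27168763-27169157.

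Wild-type SLFN11 with CPT was also set against the mean of the other 5 libraries. The region whose rank lay furthest below that mean was on chr3:3168082-3168903. It had a fold of 4.77 and 7 fragments in wild-type SLFN11 with CPT, against 9.79 and 28 in wild-type SLFN11 with DMSO. The fold was 11.6 in E669Q with CPT and 9.29 with DMSO, and 9.63 in vector with CPT and 10.3 with DMSO. The next in order were chr1:247634310-247635059 and chr10:64892815-64893310, chr1:231114186-231114998 and chr6:90539094-90539803, where the rank with CPT minus that with DMSO was −65.4 to −74.9 points in this line. The region furthest above that mean was on chr11:66056446-66057055. It had a fold of 9.69 and 20 fragments in wild-type SLFN11 with CPT, against 5.38 and 11 in wild-type SLFN11 with DMSO. Its fold was 5.73 in E669Q with CPT and 7.09 with DMSO, and 5.65 in vector with CPT and 4.34 with DMSO. The next in order were chr6:31620097-31620710, chr9:114658762-114659552, chr6:42981438-42982009 and chr5:68389596-68390042.

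The 10 members with the highest lowest-of-6 percentile by fold stood near the top in every list, which follows from that choice. A top rank in 1 list did not ensure one in another. On chr2:49456774-49456987 the rank was 99.8 in E669Q with CPT and 0.549 in vector with DMSO. The region with the highest fold of all 6 lists was on chr7:45291575-45291706, 132 bp wide, with a fold of 55.5 in E669Q with CPT and 55.0 with DMSO, 56.7 in wild-type SLFN11 with CPT and 52.8 with DMSO, and 54.4 in vector with CPT and 55.3 with DMSO. Among the members it was followed in every list by chr17:22020537-22020911 (fold 47.9 to 50.4 over the lists) and chr2:149639293-149639421 (42.1 to 45.4). These 3 kept the same rank among the members in all 6 libraries. The other strong ones included chr21:10492877-10493041, chr13:110076474-110076688, chr9:66970984-66971592, chr1:77436903-77437106, chr11:85195011-85195240, chr8:70602294-70602530 and chr19:27731853-27732802. The lowest fold of these 10 regions in any list was 23.3. In all, 38 members had a fold of at least 12 in every list, with a median width of 307.5 bp, against 633 bp over all members.

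A small set of very tall regions held most of the summed summit pileup of the members. The 40 members with at least 100 fragments at the summit in every list were 1.91% of the core. They held 60.9% of the summed summit pileup of all members in E669Q with CPT and 64.3% with DMSO. They held 64.4% in wild-type SLFN11 with CPT, against 60.4% with DMSO, and 66.7% in vector with CPT, against 64.7% with DMSO. Their 6 ranks spanned a median of 1.53 points and their 6 summits a median of 8 bp. The 12 members with at least 1000 fragments in every list held 46.5% to 55.3%. Of these, 5 lay close together on chromosome 1 between 564505 and 569581, with a fold of only 2.21 to 4.22 on pileups of 3688 to 10643 fragments, over a local background that was also tall. So a fold near the bottom of the list and a fold at its top both belonged to this set.

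Across the libraries the 12 tallest regions followed the mitochondrial genome more closely than depth. Mitochondria carry their own DNA without nucleosomes, which a transposase cuts readily, and the nuclear genome holds inserted copies of mitochondrial sequence. For the 12 tallest members the median pileup relative to vector with DMSO was 1.51 in E669Q with CPT and 1.23 with DMSO, 0.986 in wild-type SLFN11 with CPT and 1.50 with DMSO, and 1.17 in vector with CPT. The highest summit of the mitochondrial genome gave 1.52, 1.23, 0.968, 1.48 and 1.14 in the same 5 libraries, and recovered depth gave 2.22, 1.33, 1.09, 1.72 and 1.09. The mitochondrial pileups are the nearest whole numbers, which miss the deposited −log10 p by at most 0.0333. Of the 12, 11 lay nearer the mitochondrial values than the depth values, by the mean absolute log2 difference. The exception was chr1:121484079-121485434, with 3295 fragments in E669Q with CPT and 1833 with DMSO, 1799 in wild-type SLFN11 with CPT and 2437 with DMSO, and 1463 in vector with CPT and 1247 with DMSO. Among the 28 members with at least 100 but under 1000 fragments in their lowest list 7 lay nearer the mitochondrial values, and among the 2055 others 1003 (48.8%). Whether reads of mitochondrial DNA were placed in these regions was not tested.

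**Figure D5:**
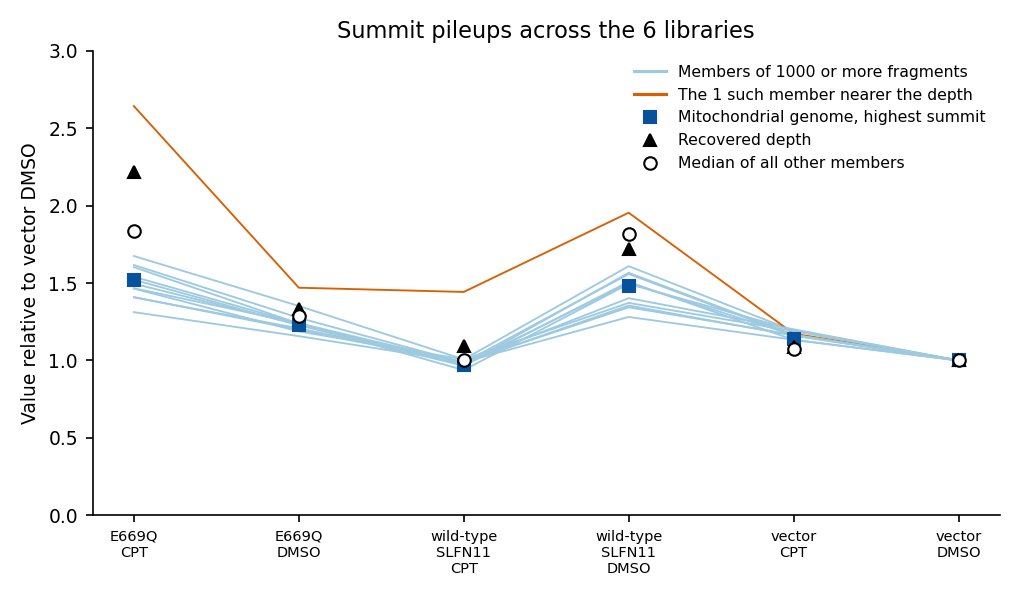
Summit pileup in each library divided by that in vector with DMSO, for the 12 regions with at least 1000 fragments in every library (lines), with the highest summit of the mitochondrial genome (squares), recovered depth (triangles) and the median of the other members (open circles). Of the 12 lines, 11 run close to the squares, and the other runs above them.

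Single regions varied far more than the rest. On chr2:49456774-49456987 the fold was 42.2 in E669Q with CPT and 5.04 with DMSO, 4.99 in wild-type SLFN11 with CPT and 39.7 with DMSO, and 4.35 in vector with CPT and 3.70 with DMSO. The pileup was 290 fragments in E669Q with CPT and 28 with DMSO, 21 in wild-type SLFN11 with CPT and 249 with DMSO, and 22 in vector with CPT and 16 with DMSO. It was high in the 2 deepest libraries, by more than their depth. The region on chr14:32953752-32954324 had the same pattern, with a fold of 27.5 in E669Q with CPT and 5.49 with DMSO, 5.19 in wild-type SLFN11 with CPT and 24.4 with DMSO, and 4.89 in vector with CPT and 2.76 with DMSO. A narrow region on chr3:160665443-160665571 was high in both E669Q libraries and in vector with CPT (fold 17.8, 18.6 and 18.9) and low in both wild-type SLFN11 libraries and in vector with DMSO (4.69 to 5.61). The other very variable regions were chr1:10016-10461, low in vector with CPT (fold 4.47, against 11.8 in vector with DMSO), and chr11:112096787-112097432, low in E669Q with CPT (4.94, against 12.7 in E669Q with DMSO). On chr1:10016-10461 the fold with CPT was 10.8 in E669Q, 7.11 in wild-type SLFN11 and 4.47 in vector. With DMSO it was 13.5, 11.2 and 11.8, so each CPT fold lay below each DMSO fold. The ranks there overlapped, at 92.2 in E669Q with CPT and 91.9 in wild-type SLFN11 with DMSO. These 5 regions were picked for their wide span of ranks, and no split by line or treatment was tested.

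The widest members differed in summits and fold. The widest of all, 3138 bp on chr6:58776285-58779422, had 11 to 13 summits in each list and a fold of 3.92 to 4.57. Then came chr21:9825481-9827541, with 3 to 5 summits and a fold of 4.14 to 4.77, and chr18:18518412-18520334, with 7 to 10 summits and a fold of 8.97 to 10.3. The region on chr9:94559055-94560878 had 8 summits in E669Q with CPT and 1 in vector with CPT, and that on chr5:10046-11759 had 4 to 7 summits and a fold of 9.36 to 11.9. Regions of many summits that were less wide were chr18:107862-109506, with 5 or 6 summits in each list, and chr3:96336127-96336975, also with 5 or 6 and with all 6 strongest summits at the same base. The 6 ranks of the first 3 spanned at most 9.83 points and those of the region on chromosome 5 spanned 13.5. The ranks spanned 58.6 points for the region on chromosome 9, 43.1 for chr18:107862-109506 and 0.955 for chr3:96336127-96336975.

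The core was spread unevenly over the chromosomes. The share of a chromosome's merged regions found in all 6 lists was highest on chromosome 21 (19.7%, 95% exact binomial interval 13.7 to 27.0), chromosome 5 (18.0%, 15.7 to 20.6), chromosome 7 (17.4%, 15.2 to 19.9) and chromosome 6 (16.3%, 14.4 to 18.4). It was lowest on chromosome 15 (3.42%, 1.93 to 5.59), chromosome 19 (4.65%, 3.34 to 6.28), chromosome 17 (5.03%, 3.42 to 7.11) and chromosome 20 (5.18%, 2.99 to 8.27). Chromosome 19, the most gene-dense chromosome, thus gave 860 merged regions but 40 members, whereas chromosome 5 gave 1003 and 181. Over the 22 chromosomes the share had a Spearman rho of −0.39 with protein-coding genes per Mb, and −0.31 without chromosome 19, as a description of points that share the same 6 libraries. The number of members per 10 Mb had a rho of 0.0040 with the same gene density, and −0.03 without chromosome 19. Members were a median of 505 kb apart, and 65 of 2073 neighbouring pairs lay within 10 kb. The densest 1 Mb stretch was on chromosome 10 from 42 to 43 Mb, with 13 members among 38 merged regions (34.2%). Next was chromosome 22 from 22 to 23 Mb, with 9 among 23 (39.1%). Over all merged regions the share was 12.4%. Set against the median of all members, the local background of these members was 18.5 on chromosome 10 and 1.65 on chromosome 22.

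The local background around members, set against the median of all members of a library, separated some chromosomes by line. On chromosome 12 it was 0.963 to 0.983 in the 2 E669Q libraries and 0.742 to 0.776 in the other 4. On chromosome 15 it was 0.895 to 0.906 in the E669Q libraries and 0.653 to 0.707 in the other 4, and on chromosome 4 it was 1.10 to 1.18 and 0.837 to 0.966. On chromosome 5 the E669Q libraries were lower, at 0.880 to 0.911, against 1.00 to 1.06 in the other 4. The E669Q libraries lay outside the other 4 on 9 of 22 chromosomes, above them on 4 and below on 5. Such a separation was not particular to E669Q, and the chromosomes were not counted for the other lines. On chromosome 19 the background was 0.706 to 0.798 in the 2 vector libraries and 0.888 to 1.34 in the other 4. On chromosome 17 it was 0.612 to 0.680 in the vector libraries and 0.709 to 1.03 in the other 4. The vector libraries were higher on chromosome 2, at 1.08 to 1.11, against 1.00 to 1.06 in the other 4. Chromosomes 12 and 15 are also poor in members, with 41 and 15. The number of copies of a chromosome in each line was not measured, and its part in the background was not tested.

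Chromosome 22 stood apart in every library. The background there was 1.57 to 2.61 times the median of all members in the 6 libraries. Of its 30 members 29 lay below 24 Mb, and over these the background had a median of 2.12 times the median of all members. How many of all 242 merged regions of the chromosome lay below 24 Mb was not counted. The 1 member above 24 Mb, chr22:51021065-51021584, had 0.577 times that median. The limit of 24 Mb was chosen after these values were seen, and the contrast rests on this 1 member. K562 is known for amplified BCR-ABL1, a fusion of parts of chromosomes 22 and 9. On chromosome 9 the background of members was 0.944 to 1.04 times the median in the 6 libraries. The number of copies of either chromosome was not measured, and its part in the background was not tested.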

How the data were processed

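ATAC-seq was done on 6 libraries, 1 per group. Each deposited file was 1 peak list per library with no header. Per the submitters' processing notes, the build was hg19 and the tools were MACS2 2.1.2, Picard 2.9.2, SAMtools 1.8, Bowtie2 2.2.6 and Trimmomatic 0.39, with no roles. For read shift, duplicates and sequenced depth the sources used here say nothing. The authors gave each summit a fold over local background, which is a ratio. The deposited −log10 p-value and −log10 q-value of a summit are also the authors'. The deposited score restates the q-value on another scale. Each list ended at a −log10 q-value of 2.00 to 2.01. Fold is the authors' value and was used to describe and rank regions within a list.

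Intervals of all lists were joined where they overlapped by at least 1 bp, and bedtools 2.31.1 gave the same 16888 regions and 2095 members. A region took its highest fold in a list. Ranks are percentiles among the 2095 members. Summit pileup and background were solved from fold and −log10 p, within 0.001 on the −log10 p scale, with the pseudocount of 1 that MACS2 uses. Relative depth came from the lowest background of a list in units of its smallest step. Shares have exact Clopper-Pearson 95% intervals. Coordinates are 1-based on hg19. Gene density is the number of protein-coding genes on a chromosome in RefSeq (GRCh38, no coordinates used) over its largest region end.

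The members, lists and tests were chosen with earlier results of these data known. Regions were named by a fixed rule: the 10 with the highest lowest-of-6 percentile; the 5 at each end of the mean CPT minus DMSO rank with 1 sign in the 3 lines, of the SLFN11 lines minus vector rank, and of wild-type SLFN11 with CPT minus the rest; the 5 widest and the 5 with the most summits; the 5 just inside and just outside; and the 5 steadiest and 5 most varied. The very tall regions, the mitochondrial comparison, the plain ratio, and chromosome 22 below 24 Mb were chosen after their values were seen. Scripts were tested on simulated lists. Software was Python 3.11.15 with scipy 1.17.1, pandas 2.3.3, matplotlib 3.10.9 and numpy 2.4.6. Sequences and gene annotation were not used here.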

Additional observations from a re-analysis of the deposited data

Results flagged for a closer look

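The difference between CPT and DMSO ran in different directions in the 3 lines for 3 measures of the core, and with 1 library a group the difference was not tested. CPT minus DMSO of the median fold was 0.584 for E669Q, −1.49 for wild-type SLFN11 and 0.134 for vector. The share of a list's regions that belonged to the core differed by −8.45 percentage points for E669Q, 20.4 for wild-type SLFN11 and −3.94 for vector. Median pileup over background differed by −1.67 for E669Q, 1.48 for wild-type SLFN11 and −0.175 for vector. The CPT over DMSO depth ratio in these lines was 1.66, 0.634 and 1.09, and its part in these differences was not tested.

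On chromosome X, which the selection left out, 43 of 537 merged regions (8.01%) were in all 6 lists.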

How the results depend on the processing

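Of 148 values recomputed under another setting, 112 stayed within the spread or the factor of 1.5 set for a count, and 36 did not. Requiring 5 lists in place of 6 gave 3801 regions. Leaving out 1 library at a time gave 2101 to 2705 regions. The median width was 645 bp with −log10 q of at least 3, 652 bp with lists of equal length (the 5091 strongest intervals by −log10 p in each), and 644.5 bp without regions under 150 bp in any list. The share with several summits was 76.2% at equal length and 73.9% without the narrow regions. The lowest median percentile over the lists was 71.3 without the narrow regions, 70.0 with −log10 p as strength and 39.6 with pileup over background. The highest was 74.8 at equal length, 85.2 without the narrow regions, 86.5 with −log10 p, 79.5 with the mean over summits and 53.5 with pileup over background. The lowest share of a top 10% was 52.5% at −log10 q of 3, 60.0% at equal length, 49.1% without the narrow regions, 67.8% with −log10 p, 49.0% with the mean over summits and 19.4% with pileup over background. The highest was 78.5%, 72.7%, 75.05%, 87.5% and 34.6% at −log10 q of 3, at equal length, without the narrow regions, with −log10 p and with pileup over background, and 77.4% without members of 100 or more fragments in every list. A limit of 30 points in place of 20 can only lower a count. The share among all regions held by both lists was not computed at this limit. Of the 2095 members, 635 moved by 30 points for CPT against DMSO in the vector line. Between lines such a move was found at 672 for E669Q against vector with CPT and 700 with DMSO. It was found at 647 for wild-type SLFN11 against vector with DMSO. For E669Q against wild-type SLFN11 it was found at 728 with CPT and 636 with DMSO. At equal length only 1444 regions were in all 6 lists. Of these, 689 moved by 20 points between wild-type SLFN11 and vector with CPT. The median distance between the outermost summits was 167 bp at −log10 q of 3, 163 bp at equal length and 153 bp with the nearest summits. Equal length and the higher threshold leave fewer regions, and otherwise the cause was not tested. The settings without very tall members and with pileup over background were added after seeing the data. Each line gave 1 CPT and 1 DMSO library, and no paired test over the lines was run. A fit of CPT against DMSO with line as a block was also not run. The median pileup of members was 11 to 20 fragments, and the part of depth in single ranks was not tested.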
